A study of Mus musculus with 12 samples.

Results

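The genes described here are 9 Wnt ligands (Wnt3, Wnt4, Wnt5a, Wnt6, Wnt7b, Wnt9a, Wnt10a, Wnt10b and Wnt11) and Wls, which encodes the carrier that brings Wnt proteins to the cell surface. They were taken by gene symbol from the deposited expression table, which held all 10 of them among 25899 genes. RNA was sequenced from the root-forming apical part of the first lower molar of C57BL/6 mice at postnatal day 4. The 6 Nfic-/- mice lacked both functional copies of Nfic, a nuclear factor I transcription factor gene needed for molar root growth, and the 6 Nfic+/- littermates that served as controls carried the mutant allele too, on 1 copy. How the allele was made is not given in the sources used here. Each genotype has libraries numbered 5 to 10, and libraries of equal number were read as littermate pairs, although no label states this. For numbers 5, 6 and 7 the expression values did not bear the pairing out. Each library is taken to be a separate mouse, as the 6 pairs of the design imply. Values are RPKM, reads scaled by gene length and by the reads of the library, so levels of different genes can be set side by side.

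Wnt proteins are secreted signals that carry a lipid group, which the acyltransferase Porcn adds in the endoplasmic reticulum, and without Wls they stay inside the cell that makes them. At the receiving cell they bind Frizzled receptors, either with Lrp5 or Lrp6, which stabilises beta-catenin, or with Ror and Ryk receptors, which act on cell shape and movement. In the tooth, Wnt signals pass in both directions between the epithelium, which forms enamel and guides the root, and the mesenchyme, which forms dentin, pulp and the tissues around the root. Loss-of-function variants of the human gene WNT10A are a known cause of missing teeth.

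By estimate, the reads per library ran from 70.2 M to 96.4 M. Nfic transcript ran from 11.4 to 24.5 RPKM in Nfic+/- and from 7.90 to 16.5 RPKM in Nfic-/- molars and was lower in 6 of 6 pairs. The ranges overlapped, and since the form of the allele is not given, this level checks no single library's label. Libraries 8 and 9 of both genotypes held intestinal transcripts, with the 14 marker genes summing to 149.5 to 199 RPKM against 0.207 to 0.496 RPKM in the other 8 libraries. Nfic-/- library 6 had the lowest mesenchymal level and Nfic-/- library 7 the highest level of oral keratinocyte genes, at a sum of 125 RPKM against at most 46.6 RPKM elsewhere. The column names hold 2 runs of sample-sheet numbers, one for libraries 5 to 7 and the other for 8 to 10, and each set has 3 libraries of each genotype.

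Wnt6 and Wnt10a were the leading ligands of this tissue. In Nfic+/- molars Wls stood at 83.1 ± 15.5 RPKM, Wnt6 at 78.7 ± 13.7, Wnt10a at 61.9 ± 6.33, Wnt4 at 34.2 ± 5.28 and Wnt5a at 12.5 ± 1.42 RPKM (SD, n = 6). Wnt7b (2.93 ± 0.423 RPKM), Wnt11 (2.72 ± 0.670 RPKM), Wnt10b (1.504 ± 0.684 RPKM) and Wnt9a (1.23 ± 0.273 RPKM) formed a low group. Wnt3 was far below them at 0.115 ± 0.0729 RPKM. Ranges of neighbours in this order overlapped for Wls and Wnt6, for Wnt6 and Wnt10a, and throughout the low group from Wnt7b to Wnt9a. They did not overlap in Nfic+/- molars between Wnt10a and Wnt4, Wnt4 and Wnt5a, Wnt5a and Wnt7b, or Wnt9a and Wnt3. Although their ranges overlapped, Wnt6 was above Wnt10a in 12 of 12 libraries, by a ratio of 1.17 to 1.46.

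**Figure D1:**
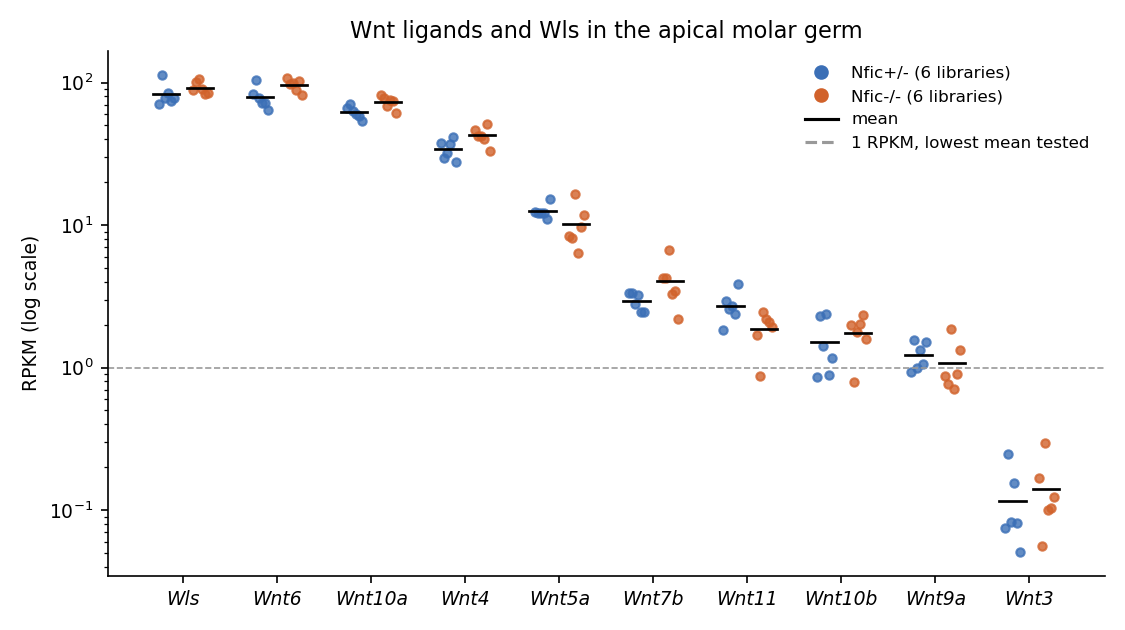
RPKM on a log axis for each member, in order of the Nfic+/- mean; points are the 6 libraries of each genotype and bars their means. Wls, Wnt6 and Wnt10a sit above 50 RPKM in every library, and Wnt3 lies below the dashed line at 1 RPKM that marks the lowest mean tested.

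The 9 member ligands made up 77.7% ± 1.32 of the summed RPKM of all 19 mouse Wnt ligands in Nfic+/- and 76.9% ± 2.34 in Nfic-/- molars (SD, n = 6 each). Wnt6 and Wnt10a together gave 55.6% ± 2.69 and 56.4% ± 1.35 of that sum. Most of the share outside the 9 members came from a pair of other ligands. Together this pair gave 20.7% of the sum in Nfic+/- and 22.0% in Nfic-/- molars. Wnt3a, best known from somite formation, stood at 27.95 ± 5.91 RPKM in Nfic+/- molars, and Wnt7a, a signal of the dorsal limb ectoderm, at 24.5 ± 4.36 RPKM. Each was thus above Wnt5a. Among the other ligands, Wnt5b had 3.62 ± 0.411 RPKM, and Wnt2b (0.258 ± 0.0521 RPKM) was near the level of Wnt3. Wnt1, Wnt2, Wnt8a, Wnt8b, Wnt9b and Wnt16 had means under 0.1 RPKM in Nfic+/- molars, and Wnt1 and Wnt8a had no more than about 1 read in any library. Wnt8b reached 0.113 ± 0.147 RPKM in Nfic-/- molars, with 0.384 RPKM in library 9.

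**Figure D2:**
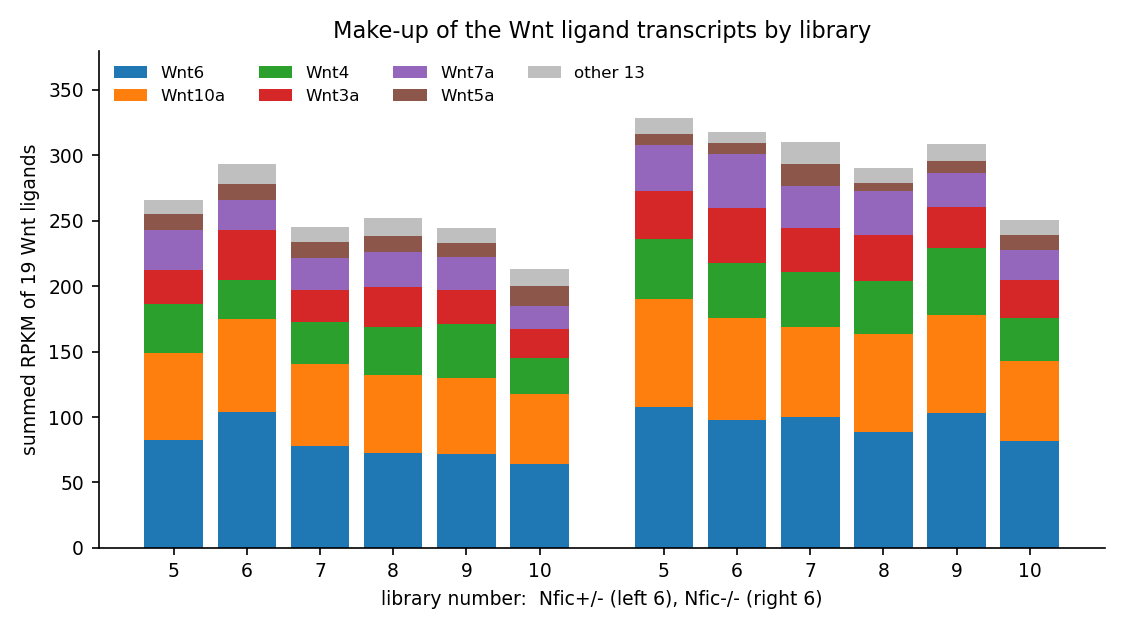
Summed RPKM of the 19 Wnt ligands in each library, Nfic+/- on the left and Nfic-/- on the right, stacked by ligand. The sum runs from 213 to 293 RPKM in Nfic+/- and from 250 to 329 RPKM in Nfic-/- libraries, and Wnt6 and Wnt10a fill 52.4% to 59.6% of every bar.

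Of the members, 5 lie beside another Wnt gene, and apart from Wnt6 and Wnt10a the neighbours differed widely in level. Coordinates are those of GENCODE M21 on GRCm38, the mm10 build of the files. Wnt6 (chromosome 1, 74771892 to 74785322) and Wnt10a (chromosome 1, 74791516 to 74804179) follow each other on the plus strand with 6.2 kb between them. Wnt9a (chromosome 11, 59306928 to 59333552) starts 16.2 kb from Wnt3a in the opposite direction, and Wnt3a was more abundant by 27.95 against 1.23 RPKM in Nfic+/- molars. Wnt10b (chromosome 15, 98770712 to 98778150) lies 11.7 kb from Wnt1, which was at or near no reads. Wnt3 (chromosome 11, 103774150 to 103817957) lies 24.3 kb from Wnt9b, at 0.0193 ± 0.0191 RPKM in Nfic+/- molars (SD, n = 6). No protein-coding gene is annotated between any of these 4 pairs. The other members stand apart from other Wnt genes: Wnt4 on chromosome 4 (137277489 to 137299726), Wnt5a on chromosome 14 (28504750 to 28527448), Wnt7b on chromosome 15 (85535437 to 85582473), Wnt11 on chromosome 7 (98835112 to 98855195) and Wls on chromosome 3 (159839672 to 159938664). Exons of Wnt5a, Wnt7b and Wnt11 overlap an antisense RNA or pseudogene on the other strand that has no row of its own in the table. Whether reads were counted by strand is not given in the sources used here, so reads of such a partner could not be told apart.

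No member passed the genotype test. Levels were compared as log2(RPKM + 1) with limma over the 12094 genes whose mean reached 1 RPKM, which held 9 of the 10 members and left out Wnt3. At an adjusted p under 0.05 the test called 0 of the 9, and over all genes it called 0% (0 of 12094). At an unadjusted p under 0.05 stood 4 of the 9 members, Wnt4, Wnt6 and Wnt10a higher and Wnt11 lower in Nfic-/- molars, against 5.34% of all genes (2.62% higher and 2.72% lower). With libraries of equal number as a block, 5 members had an unadjusted p under 0.05, Wnt5a being added, against 8.11% of all genes. These 5 were 3 higher, against 3.08% of all genes, and 2 lower, against 5.03%. Again 0 passed after adjustment. The members' count depended on the fit. With median scaling it was 2 of 9 (Wnt6 and Wnt11), beside 1197 of all 12094 genes. Quantile normalization gave the same 2, beside 1188 genes. With tissue balance as a covariate it was 0 of 9, beside 1575 genes. Without Nfic+/- library 10 it was 2 of 9, beside 319 genes. Without libraries 8 and 9 it was 1 of 9 (Wnt4), beside 324 genes. Other fits gave more members. The count was 6 of 9 without Nfic-/- library 10, beside 1249 genes. It was 5 of 9 with the library set as a term, beside 809 genes. Of the 9, 6 stood above 0, against 48.9% of all genes, and the median difference was 0.15, beside -0.003 over all genes tested. By pairs, 5 of the 9 were higher in Nfic-/- molars in 5 or 6 pairs, against 13.3% of all genes, and 3 of the 9 were lower in 5 or 6 pairs, against 8.32%. The p-values measure the spread between these libraries. The 2 genotypes overlapped in range for each of the 9 members; of all genes, 0.124% lay wholly higher and 0.0331% wholly lower in Nfic-/- molars.

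Among the abundant ligands, Wnt4, Wnt6 and Wnt10a all stood higher in the Nfic-/- molars, by about 19% to 24% of the mean RPKM. Wnt6 encodes a ligand made by surface and dental epithelia. It had a lowest, median and highest value of 64.4, 75.0 and 104 RPKM in Nfic+/- and of 81.8, 98.8 and 108 RPKM in Nfic-/- molars. Only Nfic+/- library 6, at 104 RPKM, was above its Nfic-/- partner. The difference was 0.30 in log2(RPKM + 1) (SE 0.110, unadjusted p = 0.0166, limma adjusted p = 0.934), with 5 of 6 pairs higher. Wnt10a, the tooth agenesis gene, had 53.3, 61.3 and 71.2 RPKM in Nfic+/- and 61.4, 75.0 and 82.0 RPKM in Nfic-/- molars. The ranges overlapped because Nfic-/- libraries 10 (61.4 RPKM) and 7 (68.5 RPKM) were low, yet the null library was the higher in 6 of 6 pairs, as was true of 2.69% of all genes. Its difference was 0.24 (SE 0.0888, unadjusted p = 0.0166, limma adjusted p = 0.934). Wnt4, which drives the mesenchyme-to-epithelium transition of the kidney, had 27.6, 34.4 and 41.4 RPKM in Nfic+/- and 32.9, 42.2 and 51.1 RPKM in Nfic-/- molars. It too was higher in 6 of 6 pairs, with library 10 lowest in both genotypes. The difference was 0.31 (SE 0.117, unadjusted p = 0.0205, limma adjusted p = 0.934). Taken separately, numbers 5 to 7 and 8 to 10 gave differences of 0.22 and 0.38 for Wnt6, 0.19 and 0.30 for Wnt10a, and 0.39 and 0.22 for Wnt4. The ratio of Wnt6 to Wnt10a was 1.27 ± 0.0943 in Nfic+/- and 1.32 ± 0.10 in Nfic-/- molars (SD, n = 6 each).

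Wnt3a and Wnt7a, outside the members, had differences of similar size. Wnt3a ran from 22.2 to 38.7 RPKM in Nfic+/- and from 29.0 to 41.6 RPKM in Nfic-/- molars, a difference of 0.31 (SE 0.124, limma adjusted p = 0.934). Wnt7a ran from 17.3 to 30.4 and from 22.7 to 41.3 RPKM, a difference of 0.35 (SE 0.149, limma adjusted p = 0.934). Each stood higher in 6 of 6 pairs. Wnt5b, the third tested ligand outside the members, went the other way, from 3.62 ± 0.411 to 3.15 ± 0.659 RPKM (SD, n = 6 each), with a difference of -0.17 (SE 0.116, limma adjusted p = 1) and 4 of 6 pairs lower. The sum of the 19 ligands was 252 ± 26.5 RPKM in Nfic+/- and 301 ± 27.9 RPKM in Nfic-/- molars (SD, n = 6 each) and was higher in 6 of 6 pairs.

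Wnt5a, Wnt9a and Wnt11 stood lower in the Nfic-/- molars. Wnt11, a ligand that acts mainly without beta-catenin on cell movement, had a lowest, median and highest value of 1.83, 2.66 and 3.85 RPKM in Nfic+/- and of 0.875, 1.996 and 2.46 RPKM in Nfic-/- molars. It was lower in 6 of 6 pairs, as were 2.68% of all genes, and Nfic-/- library 6 was the lowest of the 12. The difference was -0.38 in log2(RPKM + 1) (SE 0.154, unadjusted p = 0.0268, limma adjusted p = 0.934), which was -0.27 without that library. Wnt5a, the main ligand of Ror2 and a signal of the dental mesenchyme, had 11.1, 12.2 and 15.3 RPKM in Nfic+/- and 6.32, 9.02 and 16.4 RPKM in Nfic-/- molars. The control values lay close together, whereas the null values spread from the lowest to the highest of all 12. The exception among the pairs was library 7, with 16.4 RPKM in the Nfic-/- and 12.1 RPKM in the Nfic+/- molar. The Wnt5a difference was -0.34 (SE 0.168, unadjusted p = 0.0663, limma adjusted p = 0.945), or -0.48 without Nfic-/- library 7. Wnt9a, known from joint formation, ran from 0.928 to 1.56 RPKM in Nfic+/- and from 0.703 to 1.87 RPKM in Nfic-/- molars, again with Nfic-/- library 7 the highest. Its difference was -0.12 (SE 0.136, limma adjusted p = 1), and it was lower in 5 of 6 pairs. Within numbers 5 to 7 and 8 to 10 the differences were -0.40 and -0.37 for Wnt11, -0.21 and -0.47 for Wnt5a, and -0.02 and -0.23 for Wnt9a. The ratio of Wnt5a to Wnt4 was 0.377 ± 0.0979 in Nfic+/- and 0.244 ± 0.101 in Nfic-/- molars (SD, n = 6 each), and it was lower in 5 of 6 pairs.

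The remaining members were Wnt7b, Wnt10b, Wls and Wnt3. Wnt7b, a ligand of oral and other surface epithelia, had 2.44, 3.01 and 3.35 RPKM as lowest, median and highest value in Nfic+/- and 2.18, 3.85 and 6.73 RPKM in Nfic-/- molars. Its highest value came from Nfic-/- library 7, and its lowest from Nfic-/- library 10. The difference was 0.31 (SE 0.168, unadjusted p = 0.0915, limma adjusted p = 0.973), with 5 of 6 pairs higher, or 0.17 without library 7 of that genotype. Numbers 5 to 7 gave 0.52 and numbers 8 to 10 gave 0.09. Wnt10b, which promotes bone formation in mice, ran from 0.853 to 2.39 RPKM in Nfic+/- and from 0.788 to 2.32 RPKM in Nfic-/- molars. The genotypes covered the same span, with 4 of 6 pairs higher and a difference of 0.15 (SE 0.186, limma adjusted p = 1). Numbers 5 to 7 gave 0.003 and numbers 8 to 10 gave 0.30. Wls had 70.8, 78.1 and 114 RPKM in Nfic+/- and 83.4, 89.0 and 105 RPKM in Nfic-/- molars. The highest value was that of Nfic+/- library 6, which was also the only control above its partner. The Wls difference was 0.15 (SE 0.110, unadjusted p = 0.187, limma adjusted p = 1), with 5 of 6 pairs higher, and it was 0.25 without Nfic+/- library 6. Numbers 5 to 7 gave 0.19 and numbers 8 to 10 gave 0.12 for Wls. Wnt3 was not tested. It ran from 0.0509 to 0.246 RPKM in Nfic+/- and from 0.0556 to 0.298 RPKM in Nfic-/- molars, which corresponds to about 12 to 73 reads per library. The 95% intervals of the differences were not adjusted for the number of genes tested. They ran from -0.06 to 0.67 for Wnt7b, -0.25 to 0.55 for Wnt10b and -0.08 to 0.39 for Wls. For Wnt9a the interval was -0.42 to 0.17 and for Wnt5a -0.70 to 0.03. Those of Wnt4 (0.06 to 0.56), Wnt6 (0.06 to 0.54), Wnt10a (0.05 to 0.43) and Wnt11 (-0.71 to -0.05) left out 0.

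**Figure D3:**
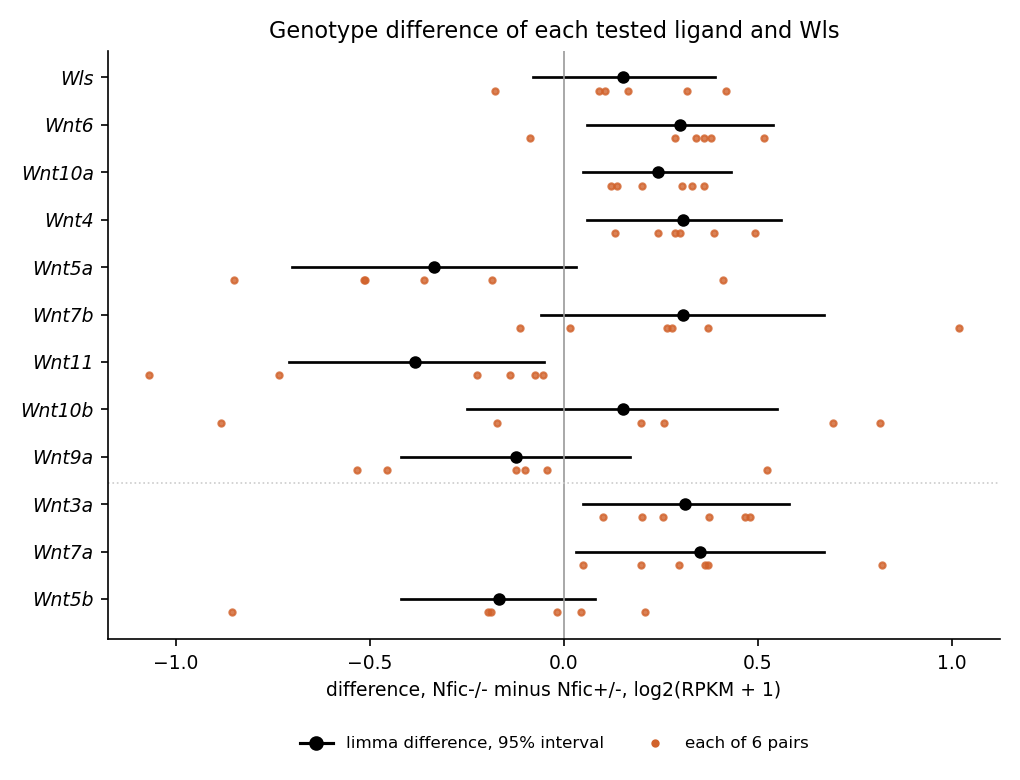
Difference between genotypes in log2(RPKM + 1), Nfic-/- minus Nfic+/-, for the 9 tested members and, under the dotted line, 3 other Wnt ligands; black points and lines are limma estimates with 95% intervals and small points the 6 pairs. All 6 pairs lie right of 0 for Wnt10a, Wnt4, Wnt3a and Wnt7a and left of 0 for Wnt11.

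Promoter sequences show the starts of 3 of these genes, chosen as the most abundant ligand (Wnt6), the member that was lower in every pair (Wnt11) and the carrier (Wls). They are the 250 bases before the annotated start, 5′ to 3′ on the gene's strand, which is the plus strand for all 3, from RefSeq on GRCm38.p6. Capitals mark a match to one of 4 motifs searched on both strands: the nuclear factor I half-site TTGGC, its palindrome (TTGGC and GCCAA with 5 bases between them, which contains the half-site), the TCF and LEF motif CTTTGAT, and the GLI motif TGGGTGGTC.
Wnt6, chr1:74771642-74771891: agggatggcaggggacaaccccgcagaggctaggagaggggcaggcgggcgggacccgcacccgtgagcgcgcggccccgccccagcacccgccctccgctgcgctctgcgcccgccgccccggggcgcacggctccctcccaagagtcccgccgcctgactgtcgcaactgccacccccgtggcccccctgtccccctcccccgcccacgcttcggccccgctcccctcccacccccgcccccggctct
Wnt11, chr7:98834862-98835111: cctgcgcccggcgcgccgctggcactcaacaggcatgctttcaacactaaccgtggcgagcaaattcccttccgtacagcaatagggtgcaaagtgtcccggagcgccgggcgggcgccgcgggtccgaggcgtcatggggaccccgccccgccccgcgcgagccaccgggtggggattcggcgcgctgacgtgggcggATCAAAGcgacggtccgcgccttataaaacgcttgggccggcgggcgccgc
Wls, chr3:159839400-159839649: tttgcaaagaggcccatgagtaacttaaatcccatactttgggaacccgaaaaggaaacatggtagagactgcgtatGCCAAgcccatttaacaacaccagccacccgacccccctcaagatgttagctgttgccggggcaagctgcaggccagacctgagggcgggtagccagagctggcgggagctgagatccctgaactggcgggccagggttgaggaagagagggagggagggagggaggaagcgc

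The Wnt6 window held none of the 4 motifs and was 79.6% G and C. The printed Wnt11 window, which ends at the gene's annotated start, held a TCF and LEF match on the other strand (ATCAAAG, from -51 to -45 relative to the start) and was 70.8% G and C. Wnt11 has a second RefSeq start further in, whose window (chromosome 7, 98838595 to 98838844) held none of the 4 motifs and was 56.8% G and C. In the Wls window the half-site stood on the other strand, from -173 to -169, with 58.0% G and C. Over 32851 mouse promoter windows of the same length the median was 52.4% G and C. The half-site occurred in 41.5% of them, the palindrome in 0.0365%, the TCF and LEF motif in 3.21% and the GLI motif in 0.225%. There were 8 entries for 7 of the 10 members, and Wnt5a, Wnt7b and Wnt10a have none. Of the members whose windows are not printed, Wnt3 held a half-site on its own strand, from -100 to -96. The windows of Wnt4, Wnt9a and Wnt10b held none of the 4 motifs. A match of letters is not a shown binding site.

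Several lists of tissue markers differed along with the ligands, and 0 of the genes in these lists passed after adjustment. Of the dental epithelium list, 18 of 18 tested genes stood above 0 in Nfic-/- molars, with a median difference of 0.30 and sums of 2101 to 3046 RPKM in Nfic+/- against 2559 to 3704 RPKM in Nfic-/- libraries. Of the dental mesenchyme list, 18 of 19 tested genes stood below 0, with a median of -0.61 and sums of 645 to 1484 against 356 to 1289 RPKM. Each list has 20 genes, and no defining marker was at 0. In the first list Cldn4 (0.471 RPKM in Nfic+/- and 0.779 RPKM in Nfic-/- molars) and Ovol1 (0.507 and 0.483 RPKM) were below the level tested. Of 9 tested odontoblast genes 8 stood below 0, with sums of 4115 to 6253 against 2695 to 5228 RPKM, and of 7 endothelial genes 7 did, with sums of 27.8 to 57.4 against 14.6 to 47.7 RPKM. Of 5 tested macrophage and osteoclast genes 5 stood below 0, with sums of 63.4 to 116 against 21.2 to 117 RPKM. The sum of 21.2 RPKM was that of Nfic-/- library 6. By pairs, the macrophage and osteoclast list mean was higher in Nfic-/- molars in 3 of 6, and the endothelial one in 2 of 6. The odontoblast and dental mesenchyme list means were higher in 0 of 6, and that of the dental epithelium in 6 of 6. Of 8 tested oral keratinocyte genes 8 stood above 0, with a median of 0.30 and a list mean that was higher in 6 of 6 pairs. Their sums were 22.6 to 35.5 against 26.8 to 125 RPKM. Nfic-/- library 7 had the highest level of both this list and the dental epithelium list. The part of oral epithelium in the level of the dental epithelium list was not tested. Other lists were mixed or short. Of 7 enamel genes 5 stood above and 2 below 0, with a list mean that was higher in 4 of 6 pairs. Their sums were 36030 to 142000 against 52830 to 140000 RPKM. Above 0 stood 1 of 3 tested cartilage, 1 of 4 nerve, 3 of 5 blood, 2 of 2 muscle and 7 of 9 intestinal genes. In bulk tissue, fewer cells of a type and less RNA per cell cannot be told apart. When the balance of the 2 lists was added to the fit as a covariate, the differences were 0.16 for Wnt6, 0.10 for Wnt10a, 0.14 for Wnt4, 0.01 for Wnt7b, 0.08 for Wls, 0.01 for Wnt9a, -0.18 for Wnt5a and -0.11 for Wnt11, and that of Wnt10b went from 0.15 to 0.32 (SE 0.221), while the median of all genes moved to 0.14. The part of tissue makeup in the genotype differences was not tested beyond these values.

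From library to library, the ligands followed these marker lists to different degrees. Pearson's r and Spearman's rho were computed over the 12 libraries between each member and the mean log2(RPKM + 1) of each list, 20 relations in all, with 2-sided permutation p adjusted over the 20. The strongest with the epithelium list was Wnt7b (r = 0.885, permutation p = 4e-05, adjusted p = 0.0008; rho = 0.888, p = 0.00027, adjusted p = 0.0054), with r = 0.878 among numbers 5 to 7 and 0.890 among numbers 8 to 10. Wnt6 followed the same list (r = 0.823, permutation p = 0.00163, adjusted p = 0.0109; rho = 0.783, p = 0.00387, adjusted p = 0.0169), with r = 0.855 and 0.816 in the 2 sets. So did Wnt10a (r = 0.75, permutation p = 0.00663, adjusted p = 0.0221; rho = 0.755, p = 0.00676, adjusted p = 0.0169; r = 0.644 and 0.869 by set) and Wls (r = 0.735, permutation p = 0.00642, adjusted p = 0.0221; rho = 0.727, p = 0.00978, adjusted p = 0.0196; r = 0.751 and 0.494 by set). Without Nfic+/- library 10 and Nfic-/- library 7, the libraries farthest from the median of the epithelium list, r was 0.827 for Wnt7b, 0.798 for Wnt6, 0.838 for Wnt10a and 0.646 for Wls, with unadjusted permutation p of 0.00284, 0.00934, 0.0049 and 0.0405. Without Nfic+/- library 10 alone, the relations of Wnt10a (r = 0.684) and Wls (r = 0.721) with this list no longer passed.

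With the mesenchyme list, Wnt11 went in step (r = 0.848, permutation p = 0.0007, adjusted p = 0.007; rho = 0.748, p = 0.00695, adjusted p = 0.0169), and Wnt10a went the opposite way (r = -0.761, permutation p = 0.00352, adjusted p = 0.0176; rho = -0.783, p = 0.00359, adjusted p = 0.0169). By set, r was 0.965 and 0.571 for Wnt11 and -0.605 and -0.838 for Wnt10a. Without Nfic+/- library 10 and Nfic-/- library 6, the farthest from the median of that list, r was 0.559 for Wnt11 (permutation p = 0.0954) and -0.634 for Wnt10a (permutation p = 0.0513), and neither was then below 0.05. Without either library alone the Wnt11 relation still passed (r = 0.804 without Nfic+/- library 10 and 0.712 without Nfic-/- library 6), while that of Wnt10a passed without Nfic-/- library 6 (r = -0.742) and not without Nfic+/- library 10 (r = -0.687). The Wnt11 relation was r = 0.984 among the 6 Nfic+/- and 0.677 among the 6 Nfic-/- libraries. By rho 10 of 20 relations passed, those 6 and 4 more. The 4 were Wnt4 with the mesenchyme list (rho = -0.783, permutation p = 0.00376, adjusted p = 0.0169; r = -0.666, adjusted p = 0.051), Wnt7b with it (rho = -0.762, permutation p = 0.00553, adjusted p = 0.0169; r = -0.602, adjusted p = 0.0691), Wnt9a with it (rho = 0.741, permutation p = 0.0076, adjusted p = 0.0169; r = 0.621, adjusted p = 0.0662) and Wnt4 with the epithelium list (r = 0.658, permutation p = 0.0208, adjusted p = 0.052; rho = 0.748, p = 0.00673, adjusted p = 0.0169). Wnt5a did not pass by either (r = 0.594 with the mesenchyme list, permutation p = 0.042, adjusted p = 0.0699; rho = 0.531, p = 0.0802, adjusted p = 0.14). When deviations from the genotype means were used, 2 of 20 passed. They were Wnt7b with the epithelium list (r = 0.862) and Wnt11 with the mesenchyme list (r = 0.782). The relations with the epithelium list then had r = 0.702 for Wnt6, 0.567 for Wnt10a and 0.683 for Wls and did not pass. Nor did that of Wnt10a with the mesenchyme list (r = -0.644). If libraries of equal number share a litter, the 12 are not wholly independent.

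Among the 45 pairs of members, 2 passed by r. Wnt6 and Wnt10a, the neighbours on chromosome 1, varied together (r = 0.912, permutation p = 7e-05, adjusted p = 0.00315; rho = 0.881, p = 0.0004, adjusted p = 0.018). Their r was 0.803 among numbers 5 to 7 and 0.934 among numbers 8 to 10, and 0.844 without the 2 libraries farthest from the Wnt6 median (permutation p = 0.00408). Wnt5a and Wnt9a also varied together (r = 0.855, permutation p = 0.00034, adjusted p = 0.00765), although by rank the pair did not pass (rho = 0.790, p = 0.00368, adjusted p = 0.0577). Their r was 0.811 and 0.948 in the 2 sets, and 0.794 without the 2 libraries farthest from the Wnt5a median (permutation p = 0.00376). It was 0.473 among Nfic+/- and 0.969 among Nfic-/- libraries. Wnt10a and Wnt10b, the closest relatives among the members, gave r = 0.274 (permutation p = 0.385, adjusted p = 0.541; rho = 0.175, p = 0.587, adjusted p = 0.777).

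**Figure D4:**
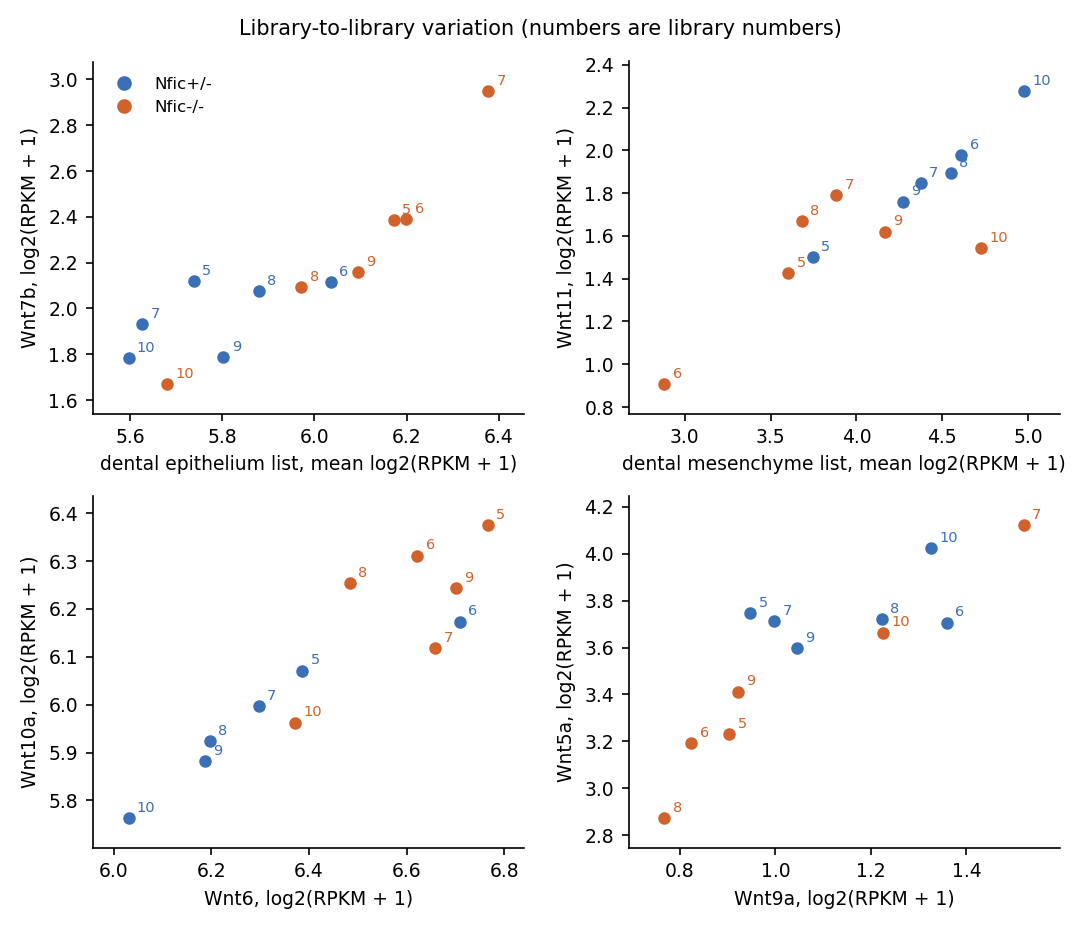
Values of the 12 libraries in log2(RPKM + 1): Wnt7b against the mean of the dental epithelium list, Wnt11 against the mean of the dental mesenchyme list, Wnt10a against Wnt6, and Wnt5a against Wnt9a; numbers are library numbers. The relations have r = 0.885, 0.848, 0.912 and 0.855, with Nfic-/- library 7 at the top right for Wnt7b and for Wnt5a and Nfic-/- library 6 at the bottom left for Wnt11.

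The genes whose profile over the 12 libraries was most like that of each tested member were picked as the 3 highest r among all tested genes, so these r carry no test. For Wnt6 they included Ntf5 and Krt80 (r = 0.925 and 0.916), and for Wnt4 they were Socs7, Tmc7 and Col17a1 (r = 0.930, 0.923 and 0.896). For Wnt7b they were Phyhip, Igfbp2 and Pkp3 (r = 0.930, 0.929 and 0.928), and for Wnt10a Gm10273, Zfp385a and Rmnd5b (r = 0.930, 0.898 and 0.889). Wnt5a was nearest to Sesn3, Epas1 and Atp1b3 (r = 0.918, 0.912 and 0.888), Wnt9a to Tax1bp3, Hs3st1 and Ppap2b (r = 0.966, 0.952 and 0.945), and Wnt11 to A530084C06Rik, Pde8a and Epha3 (r = 0.962, 0.952 and 0.942). Wnt10b was nearest to Efna3, Ly6h and Zfp385c (r = 0.938, 0.932 and 0.922), and Wls to Mtdh, AC140392.1 and 6430571L13Rik (r = 0.947, 0.944 and 0.940).

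The rest of the Wnt pathway was described from fixed lists, and 0 genes of any list passed after adjustment. Of the 12 genes for acylation, release and removal of Wnt, 7 stood above and 5 below 0. Porcn had 2.81 ± 0.890 RPKM in Nfic+/- and 3.001 ± 0.259 RPKM in Nfic-/- molars (SD, n = 6 each), and the 2 smallest p belonged to the heparan sulphate proteoglycan gene Gpc6 (4.66 ± 2.69 and 2.15 ± 1.19 RPKM) and to Reck (9.96 ± 4.36 and 5.86 ± 3.10 RPKM), which encodes a co-receptor for Wnt7 ligands in blood vessels. Of 15 tested Frizzled and co-receptor genes, 6 stood above and 9 below 0. Fzd4 and Fzd10 had the 2 smallest p, at differences of -0.27 and -0.39 (limma unadjusted p = 0.0589 and 0.0642). R-spondins raise Wnt responses by removing the ligases that clear Frizzled, and of 7 tested genes of that group 5 stood below 0. Rspo4 ran from 14.4 to 194 RPKM in Nfic+/- and from 6.00 to 157 RPKM in Nfic-/- molars, lower in 6 of 6 pairs, with the highest value of each genotype in library 10. Its difference was -1.50 (SE 0.699, unadjusted p = 0.0502, limma adjusted p = 0.934), and that of Rspo1 was -0.44 (SE 0.177, limma adjusted p = 0.934). With tissue balance as a covariate, Rspo4 turned to 0.39 and Reck to 0.09, while Rspo1 stood at -0.06, Gpc6 at -0.03, Fzd4 at -0.04 and Fzd10 at -0.03.

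Of 15 tested Wnt inhibitor genes 11 stood below 0, with a median of -0.18, and of 14 tested feedback and target genes of beta-catenin 8 stood below 0, with a median of -0.12. Axin2, the most used readout of beta-catenin signalling, had 6.04 ± 1.07 RPKM in Nfic+/- and 5.90 ± 0.649 RPKM in Nfic-/- molars (SD, n = 6 each), a difference of -0.02 (SE 0.108, limma adjusted p = 1). Apcdd1 and Dkk1, each an inhibitor and a target, had the smallest p in both lists, with differences of 0.30 and -0.52 (limma adjusted p = 0.934 for each). Of 17 transducer genes 7 stood above and 10 below 0, with a median of -0.01. The 2 smallest p there belonged to Tcf7l1 (-0.29, limma unadjusted p = 0.0977) and Pygo1 (-0.16, limma unadjusted p = 0.267). With tissue balance as a covariate, Tcf7l1 turned to 0.05 and Pygo1 to 0.12, while Apcdd1 stood at 0.14 and Dkk1 at -0.57. At an unadjusted p under 0.05, genes lower in Nfic-/- molars numbered 3 of 15 inhibitors, 2 of 14 targets, 2 of 12 release genes, 1 of 7 in the R-spondin group, 0 of 15 receptors and 0 of 17 transducers, against 2.72% of all genes. Higher at that level were 1 of 15 inhibitors and 1 of 14 targets, both counts being Apcdd1. The other 4 lists had 0, and the share over all genes was 2.62%. Among the lower genes, Dkk1 is counted both as an inhibitor and as a target.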

How the data were processed

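Total RNA was sequenced in 12 libraries, 6 of each genotype. The submitters' processing notes name TopHat2 and mm10; how reads were counted, and on which annotation, is not stated there. The values as deposited by the authors, called RPKM, span -11.1 to 16.7 and were taken as log2 of RPKM, although linear RPKM had been assumed. With base 2, values times annotated length summed to 0.773 to 0.835 of the reads; base e would give 8.23 to 28.4 times the reads. A gene without reads carries a value worth about 0.9 reads, from which depth was estimated. No count test was made, since RPKM are not counts.

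The back-transformed values entered limma 3.58.1 (R 4.3.3) as log2(RPKM + 1) for genes averaging at least 1 RPKM, with the variance trend on, genotype alone in the model and Benjamini-Hochberg adjustment at 0.05. Correlations used permutation tests with 100000 resamples in Python 3.11.15 with numpy 2.4.6. The procedures were tested on simulated data. RPKM depends on all other transcripts. The 7 enamel genes alone summed to 36030 RPKM in Nfic+/- library 6 and to 142000 RPKM in Nfic+/- library 5. Their part in the ligand values of single libraries was not tested. The abundant members Wnt4, Wnt6, Wnt10a and Wls had at least about 9239 estimated reads in every library. How far the number of mice or depth limits precision was not tested.

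Members and lists were chosen with earlier results of these data known. Named were all members, the other Wnt ligands averaging at least 0.1 RPKM, the 2 genes of smallest p in each pathway list and the 3 genes most like each member. The ligands under that level, Porcn, Axin2, Cldn4 and Ovol1 were added after their values were seen. Some genes that the rule names are left out of the text.

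The design text speaks of 6 pairs of littermates, and each genotype has the numbers 5 to 10. Equal numbers were therefore treated as pairs, which no label states. Deviations from the genotype means were compared between libraries of equal number. Their r was 0.492 (number 5), 0.005 (6), 0.310 (7), 0.667 (8), 0.688 (9) and 0.802 (10). For numbers 8, 9 and 10 the 2 libraries were each other's closest match in the other genotype. For numbers 5, 6 and 7 they were not, so these values do not bear out the pairing of those numbers. Libraries 8 and 9 also share intestinal transcripts.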

Additional observations from a re-analysis of the deposited data

Results flagged for a closer look

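Over the 20 groups of 6 libraries (10 members in each genotype), 2 held a library far from the other 5, where chance marks about 1 group in 20. Wnt5a stood at 15.3 RPKM in Nfic+/- library 10, while the other 5 Nfic+/- libraries lay between 11.1 and 12.4 RPKM. Wls stood at 114 RPKM in Nfic+/- library 6, against 70.8 to 84.0 RPKM in the other 5.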

How the results depend on the processing

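All 28 alternatives to the genotype fit called 0 genes at an adjusted p under 0.05, as did the main one. They were other pseudocounts, filters and scalings, the replicate block, other variance models, the library set as a term or each set alone, tissue balance as a covariate, and libraries left out. Of 252 differences of the 9 tested members under these alternatives, 251 kept their sign and 0 passed. The exception was Wnt9a with tissue balance as a covariate, at 0.0138 against -0.12; the cause was not tested. The smallest adjusted p of any member was 0.33, for Wnt4 with the replicate block, which changed no call.

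Genes with an unadjusted p under 0.05 numbered 646, from 319 to 1249 with 1 library left out. The libraries that moved it by over 1.5 times were Nfic+/- 5 (1075), 7 (404) and 10 (319) and Nfic-/- 5 (363), 6 (345) and 10 (1249). The count was 1197 with median scaling, 1188 with quantile normalization, 981 with the replicate block, 271 in libraries 8 to 10, 1575 with tissue balance and 324 without libraries 8 and 9.

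With 1 library left out, differences ran from 0.25 to 0.38 for Wnt4 and Wnt6, 0.20 to 0.29 for Wnt10a, 0.17 to 0.43 for Wnt7b, 0.07 to 0.27 for Wnt10b, 0.11 to 0.25 for Wls, -0.46 to -0.27 for Wnt11, -0.48 to -0.23 for Wnt5a and -0.22 to -0.07 for Wnt9a. With no pseudocount the differences of the low members were -0.58 for Wnt11, -0.26 for Wnt9a, 0.26 for Wnt10b and 0.38 for Wnt7b.

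Of the 20 relations with marker lists, 6 passed by r and 10 by rho. The number by r was 11 with median scaling, 10 without both libraries numbered 6, 2 with deviations from genotype means, and 3 to 12 with 1 library left out, the extremes being without Nfic+/- library 10 and without Nfic-/- library 7. Of the 45 relations among members 2 passed by r and 1 by rho. By r it was 9 with median scaling and 2 to 6 with 1 library left out, the highest without Nfic+/- library 6. Why these counts moved was not tested.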
